A study of Mus musculus with 6 samples.

Results

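This account covers 9 of the 23997 genes measured in mouse gastrocnemius muscle: *Tmem8c*, *Myh3*, *Myh8*, *Myl4*, *Actc1*, *Tnnt2*, *Ncam1*, *Cdh15* and *Des*. They mark myoblast fusion, the contractile isoforms of immature or regenerating fibers, and the muscle intermediate filament. They were chosen from the genotype comparison of these same mice, so their genotype differences are given as a description with no test. The mice were 21 days old and untreated, 3 *HrasG12V* (mice 2276, 2278 and 2279) and 3 WT (mice 2277, 2280 and 2281), with 1 RNAseq library per mouse. *HrasG12V* mice were Caggs-Cre+/HrasG12V/+: a ubiquitously active promoter drives the Cre recombinase, so the heterozygous activating allele was not restricted to muscle. WT mice were Caggs-Cre-/HrasflG12V/+ and carried the floxed allele without Cre, while their genotype label reads Hras+/+. Cre and the expressed allele cannot be told apart in this comparison. The study's methods describe the WT mice as littermates, but the labels name no sex, litter or batch, so litter could not be used in any fit.

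Skeletal muscle fibers form when myoblasts adhere, fuse and join their nuclei in a common cytoplasm, which needs the membrane protein myomaker. Young fibers assemble sarcomeres from embryonic, perinatal and cardiac isoforms of myosin, actin and troponin, and replace these with adult fast or slow isoforms in the weeks after birth. The same early isoforms return when adult muscle regenerates, and neural cell adhesion molecule returns when it loses its nerve supply.

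All 9 genes passed the filter on low values (an average of 0.5 FPKM or more across the 6 mice), as did 13359 genes in all. FPKM counts fragments relative to transcript length and to the mapped reads of the library, so levels of different genes can be set side by side. *Actc1* stood 16th and *Des* 48th by mean FPKM among the 13359 genes, while the other 7 genes lay between rank 5446 (*Cdh15*) and rank 9994 (*Tnnt2*). The adult muscle genes *Acta1*, *Myh4* and *Atp2a1* were listed at 0 in all 6 libraries and had no place in this ranking. Such a 0 can be a failed estimate, so the ranks hold for the listed values only. Over the 6 mice the median FPKM was 2568 for *Actc1* and 1005 for *Des*. The medians of the rest descended from 9.87 for *Cdh15* through 6.54 for *Ncam1*, 6.42 for *Myl4*, 4.40 for *Tmem8c*, 3.41 for *Myh3* and 2.48 for *Myh8* to 2.17 for *Tnnt2*. The ranges of *Actc1* and *Des* overlapped, and each gene from *Cdh15* to *Tnnt2* overlapped its neighbor in this order, so that the only gap between neighbors that exceeded the spread over mice was the one between *Des* and *Cdh15*.

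Spread within a genotype differed widely among the 9 genes. In WT mice the coefficient of variation was 1.41% for *Des*, 3.37% for *Cdh15* and 4.26% for *Myh8*, against a median of 9.28% over all genes tested. It was 40.9% for *Actc1* and 45.5% for *Myh3*, larger than in 94.1% and 95.0% of all genes tested. In *HrasG12V* mice the median over all genes was 29.7%, and the coefficients ran from 12.5% for *Ncam1* to 90.4% for *Actc1*. Mouse 2276 had the highest value of the 6 mice in 7 of the 9 genes, and in 35.5% of all genes tested.

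**Figure D1:**
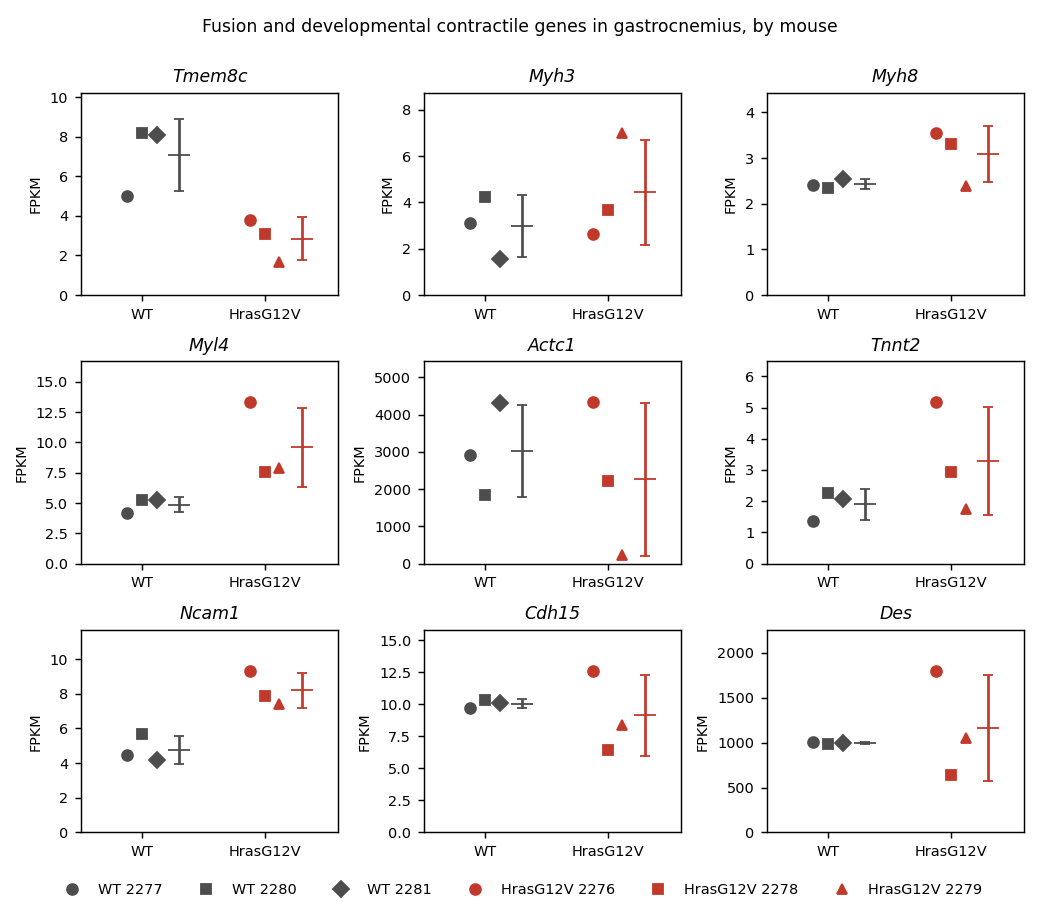
FPKM (vertical axis, from 0) of each of the 9 genes in the 3 WT and 3 *HrasG12V* mice, 1 point per mouse, with the mean and SD of each genotype at the right of its points. *Tmem8c*, *Myl4* and *Ncam1* are the 3 genes whose genotypes do not overlap.

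Of the 9 genes, *Myl4* and *Ncam1* were higher and *Tmem8c* lower in every *HrasG12V* mouse than in any WT mouse, and the genotypes overlapped in the other 6. Over all genes tested, 8.11% did not overlap with *HrasG12V* higher and 10.4% with *HrasG12V* lower. The same 3 genes met the limits used for calls, an unadjusted limma p below 0.05 and a change of 1.5-fold or more, giving 2 called higher against 4.03% of all genes and 1 called lower against 3.10%. None of the 9 passed after Benjamini-Hochberg adjustment, as 0.0599% of all genes (8 genes) did. The rule that chose the genes used this contrast, so nothing is read from these counts. Their median log2 fold change was 0.31, and that of all genes tested was -0.03. The median of the 9 was 0.16 without mouse 2281, 0.18 without 2279, 0.20 without 2276 and 0.47 without 2278.

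Some libraries stood apart in ways that touch these values. In mouse 2276, the FPKM of all genes summed to 814013 against 413020 to 547122 in the other 5 mice, and the 10 most abundant genes took 29.9% of the sum against 18.6% to 24.2%. WT mouse 2281 nearly lacked slow-fiber transcripts, with the slow myosin heavy chain *Myh7* at 0.443 FPKM against 95.2 to 245.1 in the other 5 mice. Markers of B and T cells summed to 85.5 FPKM in mouse 2278 and 75.7 in mouse 2279, against 1.15 to 2.07 in the other 4. Several abundant adult muscle genes were listed at 0, namely *Acta1*, *Myh4* and *Atp2a1* in all 6 libraries, *Ckm* in 5, *Myh1* in WT mice 2277 and 2280, and *Tnnt3* in mouse 2276. Such a 0 in adult muscle can be a failed estimate and is not read as absence. None of the 9 genes was listed at 0. *Hras* itself lay between 36.0 and 51.8 FPKM in WT and between 16.0 and 58.8 in *HrasG12V* mice. These ranges overlap, so the level does not separate the genotypes. The study instead examined the reads and reported WT and mutant *Hras* transcripts in roughly equal amounts in *HrasG12V* muscle.

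*Tmem8c*, now named *Mymk*, encodes myomaker, which drives myoblast membranes to fuse (GRCm38 chr2:27061636-27072179, minus strand). Its FPKM was 5.0, 8.19 and 8.09 in WT mice 2277, 2280 and 2281, and 3.802, 3.08 and 1.69 in *HrasG12V* mice 2276, 2278 and 2279. Every *HrasG12V* value lay under every WT value, though WT mouse 2277 was closer to mouse 2276 than to its own group. The means were 7.09 ± 1.81 (SD, n = 3) and 2.86 ± 1.07 (SD, n = 3), and the log2 fold change was -1.32 (SE 0.34). Leaving out 1 mouse at a time, it ran from -1.56 without mouse 2276 to -0.995 without mouse 2279. Libraries were also centred on the 5 skeletal muscle markers above 0 in every library, a scaling chosen after the data were seen. The log2 fold change was then -0.77 and no longer met the call limits. That scaling moved the median of all genes to 0.52. With mice 2278 and 2279 both left out, the log2 fold change of *Tmem8c* was -0.85, a value with mouse 2276 alone in its group. Mouse 2276, whose B and T cell markers summed to 2.07 FPKM against 1.15 to 1.54 in WT mice, was also below every WT mouse. A link between B and T cell transcripts and *Tmem8c* was not tested. In bulk muscle, fewer myoblasts and less *Tmem8c* RNA per myoblast cannot be told apart.

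Myomaker acts with myomixer, listed in the files as *Gm7325*, which completes the fusion pore. *Gm7325* was near the filter, with FPKM of 0.710, 1.24 and 0.856 in WT and 0.943, 0.520 and 0.263 in *HrasG12V* mice, with overlapping genotypes and no call (log2 fold change -0.71, limma adjusted p = 0.664). Its value was -1.09 and called lower without mouse 2276, and -0.33 without mouse 2279. Among 25 tested genes of the fusion machinery outside the 9, 1 was called lower, 0 higher and 16 had a log2 fold change below 0, with a median of -0.23 against -0.03 for all genes. Without mouse 2276 the median was -0.04 against -0.07 for all genes, 12 of the 25 were above 0, and 2 were called in each direction, and the median was also nearer 0 without mouse 2278 (-0.12) or 2280 (-0.13). With all mice, the gene called was *Jam2*, a junctional adhesion molecule. It stood at 18.9, 19.3 and 18.8 FPKM in WT and at 11.4, 10.9 and 10.5 in *HrasG12V* mice, so that each genotype was tight and the groups were well apart. Its log2 fold change was -0.79 (SE 0.14, limma adjusted p = 0.288), and the call was lost under the centring on 5 muscle markers (-0.24). *Jam3*, another junctional adhesion molecule of the list, was at 0.03 (SE 0.18) and was not called. The highest log2 fold change of the list belonged to *Stab2*, a phosphatidylserine receptor, at 1.07 (SE 0.80), which was not called with all mice. *Stab2* was at 0.37, 0.39 and 0.50 FPKM in WT and at 0.21 in mouse 2276. It was at 1.41 and 2.65 FPKM in mice 2278 and 2279, the pair with B and T cell transcripts. The log2 fold change was 1.98 and called higher without mouse 2276, and 0.41 without mouse 2279.

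*Ncam1* encodes neural cell adhesion molecule, carried by myoblasts, young and denervated fibers, and also by Schwann cells and axons (GRCm38 chr9:49502136-49798925, minus strand). It measured 4.45, 5.70 and 4.17 FPKM in WT mice 2277, 2280 and 2281, and 9.35, 7.86 and 7.39 in *HrasG12V* mice 2276, 2278 and 2279. All 3 *HrasG12V* values were above the WT range, with means of 4.77 ± 0.814 and 8.20 ± 1.02 (SD, n = 3 each). The log2 fold change was 0.77 (SE 0.18), and between 0.68 and 0.91 with any mouse left out. Markers of nerve and Schwann cells moved in the same direction: all 8 had a log2 fold change above 0, with a median of 0.94, and 3 of them (*Pmp22*, *S100b* and *Ngfr*) were called higher. That count was 1 without mouse 2277, 2281 or 2278, 2 without 2279, 4 without 2280 and 7 without 2276. *Pmp22* lost its call without mouse 2277 (0.74), 2281 (0.90), 2278 (0.92) or 2279 (0.82), and *S100b* without mouse 2277 (0.76), 2281 (0.90), 2276 (0.79) or 2278 (0.73), while *Ngfr* kept its call in all 6 of these fits. *Ngfr*, the low-affinity neurotrophin receptor, had the highest value of the 8, a log2 fold change of 1.53 (SE 0.37, limma adjusted p = 0.378), and the adhesion molecule *L1cam* the lowest (0.42, SE 0.41, and 0.85 and called without mouse 2276). The 8 markers summed to 138, 376 and 174 FPKM in the WT mice and to 233, 526 and 626 in mice 2276, 2278 and 2279. Mouse 2276, whose sum lay within the WT range, had the highest *Ncam1* of all 6 mice. In that mouse *S100b* (3.69 FPKM) and *Ngfr* (1.245) were nonetheless above the highest WT values (2.01 and 0.797).

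**Figure D2:**
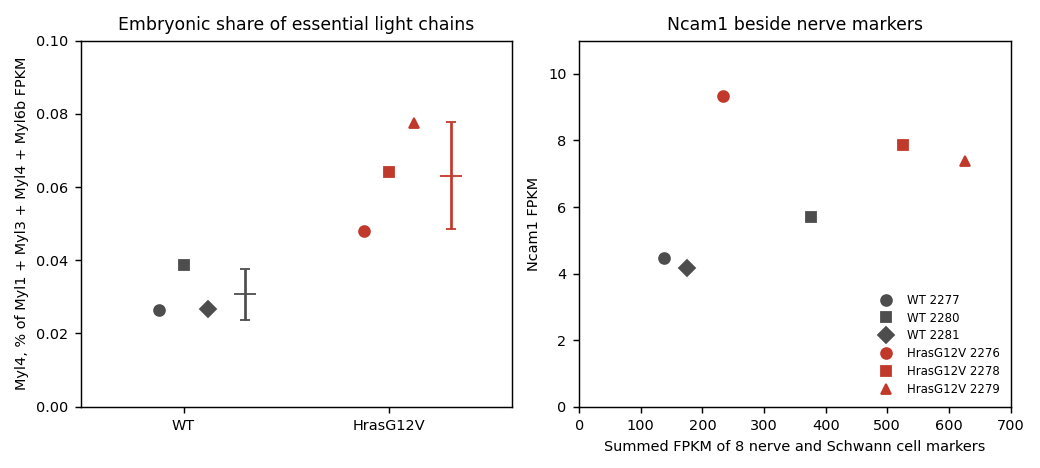
Left, FPKM of *Myl4* as a percentage of the summed FPKM of *Myl1*, *Myl3*, *Myl4* and *Myl6b* in each mouse, with mean and SD, where WT mice lie between 0.0265% and 0.0386% and *HrasG12V* mice between 0.0480% and 0.0774%. Right, *Ncam1* FPKM against the summed FPKM of 8 nerve and Schwann cell markers, 1 point per mouse, with mouse 2276 highest in *Ncam1* and within the WT range of the summed markers, though not of *S100b* and *Ngfr* alone.

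Genes of denervated fibers outside the 9 gave 2 calls higher and 0 lower among 9 tested, with a median log2 fold change of 0.15. With a mouse left out the median ran from 0.10 to 0.40, and the calls from 1 higher (without mouse 2277, 2281 or 2278) to 3 higher and 1 lower (without 2276). *Chrna1*, the alpha subunit of the muscle acetylcholine receptor, was at 8.70, 11.1 and 11.03 FPKM in WT and at 82.3, 54.5 and 83.4 in *HrasG12V* mice, a log2 fold change of 2.81 (SE 0.23, limma adjusted p = 0.0252). *Musk*, the receptor kinase of the neuromuscular junction, had a log2 fold change of 1.05 (SE 0.35, limma adjusted p = 0.448), and its call was lost without mouse 2277 (1.08), 2281 (0.82), 2278 (1.01) or 2279 (0.78). *Chrng*, the fetal gamma subunit of the same receptor and the lowest of the list at a log2 fold change of -0.54 (SE 0.44), stood at 0.688, 0.881 and 0.854 FPKM in WT and at 0.931, 0.477 and 0.302 in *HrasG12V* mice, and was not called (limma adjusted p = 0.721). Its value was -0.91 without mouse 2276, where it was called lower, and -0.23 without mouse 2279.

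*Cdh15* encodes M-cadherin, the adhesion molecule of satellite cells and fusing myoblasts (GRCm38 chr8:122847966-122867397, plus strand). WT values of 9.66, 10.3 and 10.1 FPKM were nearly the same, while *HrasG12V* mice 2276, 2278 and 2279 stood at 12.6, 6.45 and 8.38. The *HrasG12V* mice thus fell on both sides of a narrow WT range, and the log2 fold change was -0.18 (SE 0.25), from -0.44 without mouse 2276 to 0.04 without mouse 2278. Of 7 satellite cell markers, 2 were called higher and 0 lower, with a median log2 fold change of 0.32, and 0 were called without mouse 2280, 2281 or 2279. *Pax7*, the transcription factor of satellite cells, had a log2 fold change of 0.59 (SE 0.20, limma adjusted p = 0.454), and its call was lost without mouse 2280 (0.54), 2281 (0.56) or 2279 (0.51), and also with a pseudocount of 1 (0.37), quantile normalization (0.45) or equal total FPKM (0.58). *Vcam1*, which endothelium also carries, measured 2.93, 3.14 and 3.36 FPKM in WT, 3.35 in mouse 2276 and 8.64 and 9.87 in mice 2278 and 2279, the pair with B and T cell transcripts. Its log2 fold change of 1.05 (SE 0.40, limma adjusted p = 0.481) lost its call in 5 of the 6 fits that left out a mouse (0.76 to 1.10) and kept it only without mouse 2276 (1.53). *Myog*, the factor of differentiating myocytes, had a log2 fold change of 0.03 (SE 0.37, limma adjusted p = 0.990), from -0.35 without mouse 2276 to 0.34 without mouse 2279, and among the 10 myogenic and Mef2 factors *Pax7* was the only one called with all mice and *Six4* the lowest (-0.52, SE 0.29). *Six4* was at -0.83 and called lower without mouse 2279, and at -0.27 without mouse 2276. That list gave 0 higher and 2 lower without mouse 2279, and 2 higher without mouse 2278.

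*Myh3* and *Myh8* encode the embryonic and the perinatal myosin heavy chain, motors of young fibers that lie in one cluster on chromosome 11 (GRCm38 chr11:67078300-67102291 and chr11:67277124-67308634, both plus strand). They are shown here with their upstream sequence because they belong to 1 gene cluster, with *Myh2*, *Myh1* and *Myh4* between them, and gave unlike patterns over the mice. *Actc1*, the cardiac actin used by young skeletal fibers (GRCm38 chr2:114047282-114053548, minus strand), is added because its window held the one CArG box found in those searched. RefSeq (GRCm38.p6) had an upstream entry for 7 of the 9 genes, all but *Tmem8c* and *Ncam1*. Capitals mark an E-box (CANNTG, the core bound by myogenic factors), a TATAAA, a MEF2 site or a CArG box, the serum response element, and each stretch runs 5′ to 3′ toward the transcription start. The *Actc1* stretch ends 12 bases short of it, where an annotated exon begins.
Myh3 (chr11:67078050-67078299, plus strand): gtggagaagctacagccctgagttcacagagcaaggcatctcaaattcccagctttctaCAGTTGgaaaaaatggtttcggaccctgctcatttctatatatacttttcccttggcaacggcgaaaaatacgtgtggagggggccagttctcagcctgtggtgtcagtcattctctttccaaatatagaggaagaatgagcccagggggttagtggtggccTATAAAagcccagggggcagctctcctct
Myh8 (chr11:67276874-67277123, plus strand): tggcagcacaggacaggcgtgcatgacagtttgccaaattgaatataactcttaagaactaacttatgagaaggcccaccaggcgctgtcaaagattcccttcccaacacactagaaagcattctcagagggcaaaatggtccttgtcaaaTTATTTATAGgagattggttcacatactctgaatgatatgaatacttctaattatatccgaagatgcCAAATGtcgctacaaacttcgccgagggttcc
Actc1 (chr2:114052888-114053125, minus strand): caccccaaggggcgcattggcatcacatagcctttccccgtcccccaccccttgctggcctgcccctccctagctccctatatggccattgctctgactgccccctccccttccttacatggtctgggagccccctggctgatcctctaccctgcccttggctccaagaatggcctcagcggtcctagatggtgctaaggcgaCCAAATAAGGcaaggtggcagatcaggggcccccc
Counted from the first base of each match, the *Myh3* stretch held an E-box 191 bases and a TATAAA 29 bases before the start. The *Myh8* stretch held a MEF2 site at 99 bases and an E-box at 32 bases, and the *Actc1* stretch a CArG box at 47 bases. Among 32851 RefSeq promoter windows of 250 bases, 66.2% held an E-box on either strand, 7.59% a TATAAA on the gene's strand, 2.92% a MEF2 site and 1.47% a CArG box on either strand. These matches describe the letters only.

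*Myh3* measured 3.13, 4.25 and 1.55 FPKM in the WT mice 2277, 2280 and 2281, and at 2.64, 3.69 and 6.995 in *HrasG12V* mice 2276, 2278 and 2279. Only mouse 2279 lay above the WT range, and the lowest value belonged to WT mouse 2281. The log2 fold change was 0.55 (SE 0.47). It was 0.16 without mouse 2281, 0.18 without mouse 2279 and 0.86 without mouse 2276. *Myh8* measured 2.401, 2.35 and 2.55 FPKM in WT mice and at 3.55, 3.32 and 2.39 in *HrasG12V* mice. Here mice 2276 and 2278 were above the WT range and mouse 2279, the highest in *Myh3*, was inside it, for a log2 fold change of 0.31 (SE 0.19). That value was 0.20 without mouse 2276, 0.48 without mouse 2279 and 0.86 under the centring on 5 muscle markers. Of the 50-base windows of their coding transcripts, the length of the reads, 16.7% of *Myh8* and 4.76% of *Myh3* occurred exactly in transcripts of another gene, most often *Myh2* (9.20%) and *Myh13* (2.79%), so part of either value could belong to a relative. A share of all sarcomeric myosin heavy chains could not be had for either gene, since *Myh4* was listed at 0 in all 6 libraries.

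*Myl4* encodes the embryonic and atrial essential light chain, which sits on the lever arm of early myosin (GRCm38 chr11:104550663-104595753, plus strand). WT mice 2277, 2280 and 2281 had 4.15, 5.22 and 5.27 FPKM, and *HrasG12V* mice 2276, 2278 and 2279 had 13.4, 7.58 and 7.89. The lowest *HrasG12V* value was above the highest WT value, and mouse 2276 stood well above the other 2 of its group. The means were 4.88 ± 0.634 and 9.61 ± 3.25 (SD, n = 3 each), and the log2 fold change was 0.92 (SE 0.25), from 0.66 without mouse 2276 to 1.07 without mouse 2278. As a share of the 4 essential light chains of striated muscle (*Myl1*, *Myl3*, *Myl4* and *Myl6b*), a ratio within a library that library scaling cannot move, *Myl4* made up 0.0265%, 0.0386% and 0.0268% in WT and 0.0480%, 0.0640% and 0.0774% in *HrasG12V* mice. The order within *HrasG12V* was thus turned, with mouse 2276 lowest, since the adult fast chain *Myl1* was also highest there. The mean share was 2.06 times that of WT, and the genotypes did not overlap.

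*Tnnt2* encodes cardiac troponin T, the tropomyosin-binding subunit of young fibers and heart (GRCm38 chr1:135836354-135852260, plus strand). It measured 1.35, 2.28 and 2.06 FPKM in WT and 5.18, 2.94 and 1.76 in *HrasG12V* mice 2276, 2278 and 2279. Mice 2276 and 2278 exceeded all WT mice, and mouse 2279 lay inside the WT range, for a log2 fold change of 0.67 (SE 0.41). That value was 0.28 without mouse 2276 and 1.04 without mouse 2279, where it met the call limits that it missed with all mice. Its share of the 3 troponin T genes, in the 5 libraries where none was listed at 0, was 0.0149%, 0.0265% and 0.0197% in WT and 0.0336% and 0.0247% in mice 2278 and 2279, which overlapped.

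*Actc1* gave the widest spread of the 9 genes, with 2919, 1836 and 4302 FPKM in WT mice 2277, 2280 and 2281 and 4343, 2217 and 244.8 in *HrasG12V* mice 2276, 2278 and 2279. Mouse 2279 stood far below all others, and was the only mouse in which *Actc1* was below *Des*. The other 2 *HrasG12V* mice were no lower than the lowest WT mouse. The log2 fold change of -1.10 (SE 1.07) rested on that library and was 0.12 without it. None of the 1568 windows of 50 bases in *Actc1* transcripts occurred exactly in another gene, but the adult actin *Acta1* was listed at 0 in every library, so no share of the 2 striated actins could be computed.

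**Figure D3:**
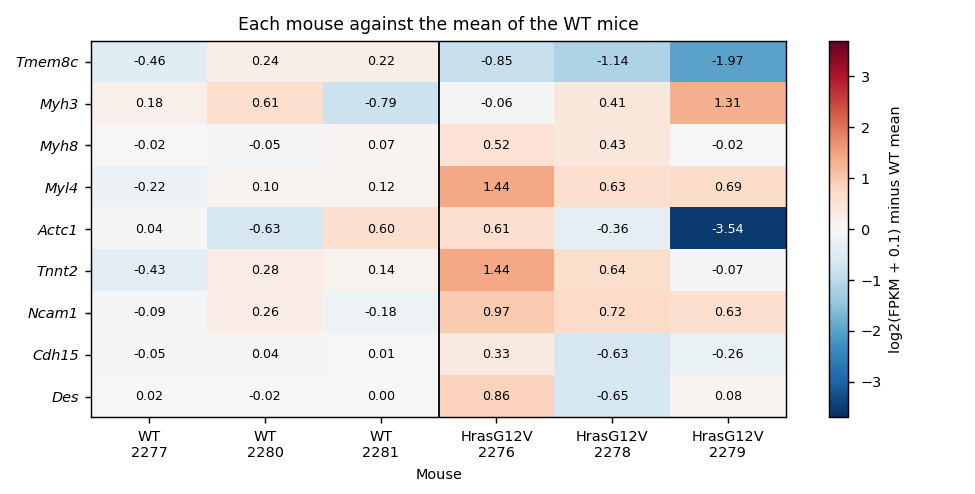
Difference of each mouse (columns) from the mean of the WT mice, in log2(FPKM + 0.1), for the 9 genes (rows), red for higher and blue for lower. *Tmem8c* is negative and *Myl4* and *Ncam1* are positive in all 3 *HrasG12V* mice, and *Actc1* in mouse 2279 reaches -3.54.

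Among 15 other genes of immature fibers, 2 were called higher and 0 lower, and the median log2 fold change was 0.04. Without mouse 2276, 0 were called higher and 2 lower, with a median of -0.13. *Myl6b*, a slow essential light chain, had a log2 fold change of 1.70 (SE 0.60, limma adjusted p = 0.460) and lost its call without mouse 2276 (1.6), 2278 (1.88) or 2279 (1.61). Its value moved most without WT mouse 2281, to 1.002, and *Myl6b* was at 5.03 FPKM there and at 17.1 and 27.3 in the other WT mice. *Sln*, sarcolipin, an inhibitor of the calcium pump, stood at 22.9, 12.9 and 7.20 FPKM in WT and 47.7, 23.8 and 98.6 in *HrasG12V* mice (log2 fold change 1.90, SE 0.61, limma adjusted p = 0.435), and its call was lost without mouse 2280 (1.90), 2281 (1.48), 2276 (1.90) or 2279 (1.38). The list ran from *Mest* (-0.71, SE 0.35, and -1.08 and called lower without mouse 2278) to the slow troponin I gene *Tnni1* (2.51, SE 1.47), which stood at 2.61 FPKM in WT mouse 2281 and at 91.6 or more in the other 5, and whose value was 0.71 without that mouse. The imprinted growth genes *Igf2*, *H19* and *Dlk1*, high in young muscle, were not called with all mice. *H19* stood at 2597, 2034 and 2427 FPKM in WT and at 4026, 1354 and 1291 in *HrasG12V* mice 2276, 2278 and 2279, and without mouse 2276 its log2 fold change went from -0.29 to -0.82 and it was called lower. The 6 tested cardiac contractile isoforms outside the 9 all had a log2 fold change above 0, from *Tnni3* (0.17, SE 0.38) to *Myh7* (3.30, SE 1.97), and none was called. Their median was 2.80, and 0.70 without WT mouse 2281, the mouse with almost no slow-fiber transcripts, and most of these isoforms are shared by heart and slow fibers. Adult fast isoforms had a median of -0.03 over 10 tested genes, with 0 called. Without mouse 2276 the median was -0.46, with 1 of 10 above 0 and 2 called lower, and without mouse 2279 it was 0.30. Without WT mouse 2281, 1 was called higher. In that fit *Myh1* was at 0 in WT mice 2277 and 2280, against 297 to 1185 FPKM in *HrasG12V* mice. Such a 0 is not read as absence. That list held *Myh1* and *Tnnt3*, whose listed zeros set its extremes.

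**Figure D4:**
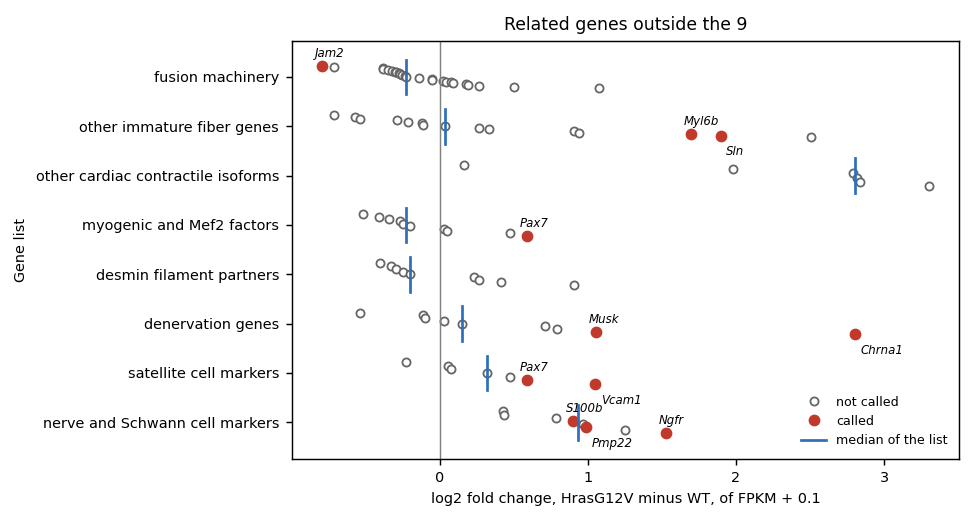
Log2 fold change of FPKM + 0.1 (horizontal axis, *HrasG12V* minus WT) of the tested genes of 8 related lists, 1 point per gene, with filled points for called genes and a line at each list's median. Called genes are *Jam2* on the lower side and *Myl6b*, *Sln*, *Pax7*, *Vcam1*, *Chrna1*, *Musk*, *S100b*, *Pmp22* and *Ngfr* on the higher side.

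*Des* encodes desmin, the intermediate filament that ties neighboring myofibrils together (GRCm38 chr1:75360329-75368579, plus strand). WT mice were almost identical at 1009, 982 and 1000 FPKM, and *HrasG12V* mice 2276, 2278 and 2279 had 1804, 635 and 1053. The *HrasG12V* mice spanned 2.84-fold around the WT values, and the log2 fold change was 0.09 (SE 0.44), with -0.29 without mouse 2276 and 0.47 without mouse 2278. Among 9 tested partners of desmin filaments 0 were called (1 lower without mouse 2276, 1 higher without mouse 2279), with the highest log2 fold change in *Nes*, the intermediate filament nestin (0.90, SE 0.42), and the lowest in *Dmd*, dystrophin (-0.40, SE 0.32). *Nes* was at 1.42 and called without mouse 2279, called with equal total FPKM (0.89), and at 0.57 without mouse 2276, while *Dmd* was at -0.06 without mouse 2276 and -0.69 without mouse 2279.

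**Figure D5:**
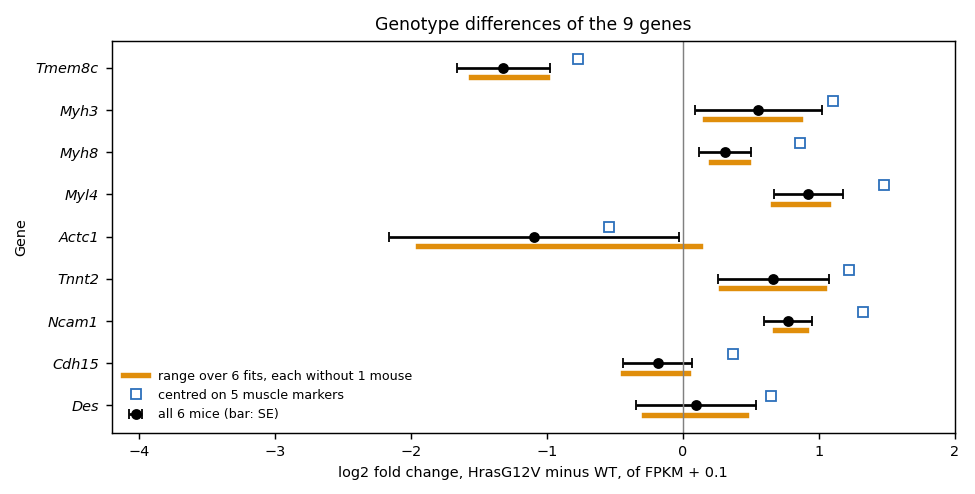
Log2 fold change of FPKM + 0.1 (horizontal axis, *HrasG12V* minus WT) of the 9 genes, with points for all 6 mice and SE bars, thick lines for the range over fits that each leave out 1 mouse, and open squares for libraries centred on 5 skeletal muscle markers. *Tmem8c* stays below 0 and *Myl4* and *Ncam1* stay above 0 throughout, while *Actc1*, *Cdh15* and *Des* cross 0.

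Genes outside the 9 were ranked by likeness of their pattern over the 6 mice, as the root mean square difference of log2 values taken from each gene's WT mean, among 13350 genes. The nearest gene to *Myh8* was *Kpna2* (0.0293), to *Cdh15* *Tmem230* (0.0298), to *Ncam1* *Eid1* (0.0525), to *Des* *Imp3* (0.0534) and to *Myl4* *Gpx1* (0.0888). Farther off were *Cyp4b1* for *Myh3* (0.136), *Cyp1a1* for *Tnnt2* (0.187), *Tm6sf1* for *Tmem8c* (0.203) and *B230312C02Rik* for *Actc1* (0.515). Within the 9, *Myl4* and *Ncam1* were nearest to each other (0.248), with 51 outside genes nearer to *Myl4* than *Ncam1* was, and 113 nearer to *Ncam1* than *Myl4* was. *Cdh15* and *Des* were each other's nearest as well (0.258), with 938 outside genes nearer to *Des* and 2138 nearer to *Cdh15*. *Gpx1*, glutathione peroxidase, showed the pattern of *Myl4* at a higher level, with 40.8, 47.9 and 51.8 FPKM in WT and 119.6, 69.4 and 66.7 in *HrasG12V* mice.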

How the data were processed

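Gastrocnemius RNA of 6 mice was sequenced as single-end reads of 50 bases from stranded mRNA libraries. The authors aligned reads with TopHat and made the deposited FPKM, 1 per gene and library, with Cufflinks and Cuffnorm (tools and builds GRCm38 and mm10 as named in the submitters' processing notes, which give no versions). The study's methods state only an approximate number of reads per sample, and the depth of each library cannot be read from FPKM, which Cuffnorm rescales. Genotypes came from the sample titles, and mice are the replicates.

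Here log2(FPKM + 0.1) was fitted in R 4.3.3 by limma 3.58.1 (moderated, with an abundance trend and no covariate) over the 13359 genes that averaged 0.5 FPKM or more. Calls needed p below 0.05 and a change of 1.5-fold or more, and p were adjusted by Benjamini-Hochberg over all genes. The fit was also run on simulated data that gave every gene and both genotypes the same spread. The spread of these mice differed by genotype, so that run cannot vouch for the fit here. The 9 genes and all lists were chosen with earlier results of these data known. Named were the 9 genes, Hras, each list's called genes and its extremes (B and T cell, smooth muscle, adipocyte, tendon and fibroblast, and macrophage markers mostly by their counts), the isoform share genes and each gene's nearest neighbor; *Myog*, *Gm7325*, *Igf2*, *H19* and *Dlk1*, members of the lists, were named after their values were seen. Isoform shares were computed only in libraries with no isoform listed at 0. Positions are from GENCODE vM21 (GRCm38), upstream sequences from RefSeq. Python 3.11.15 drew the figures with matplotlib 3.10.9. Alternatives were other pseudocounts, filters and scalings, no moderation, and each mouse left out. B and T cell, smooth muscle, adipocyte, tendon and fibroblast, and macrophage markers gave 6, 0, 1, 0 and 1 genes called higher (*Ucp1* and *C1qa* among them) and 0, 0, 0, 3 and 0 lower (*Tnmd*, *Fmod* and *Comp*) with all mice.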

Additional observations from a re-analysis of the deposited data

How the results depend on the processing

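No paired analysis was possible because the genotypes share no replicate numbers and, although the WT mice were littermates per the study's methods, the labels do not tie mice to litters. Under the other pseudocounts, filters, quantile normalization, equal total FPKM and no moderation, the log2 fold change was -1.40 to -1.08 for *Tmem8c*, 0.82 to 0.93 for *Myl4* and 0.68 to 0.79 for *Ncam1*, given as values because these genes were chosen on this contrast. Centring each library on the median of 10 skeletal muscle markers is unsound here, since 3 of them were listed at 0 in all libraries and 2 more in some. It moved the median log2 fold change of all genes to 2.36, left 0 of the 9 genes called in either direction, and turned *Tmem8c* to 1.07, *Jam2* to 1.597, and the tendon markers *Tnmd* to 0.51, *Fmod* to 0.93 and *Comp* to 0.55. It called 212 genes higher and 2 lower, 2 after adjustment, and 9 and 0 of the listed genes outside the 9. Centring on the 5 markers above 0 in every library, chosen after seeing the data, called 2752 genes higher and 30 lower, 5 of the 9 higher and 0 lower, and 35 and 0 listed genes. The share of calls that were higher was 56.5% as reported, 99.1% and 98.9% under these centrings, and 43.7% and 45.6% without mouse 2278 or 2279.

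With all mice, 538 genes were called higher, 414 lower and 8 after adjustment. Leaving out a mouse gave 274 to 1154, 263 to 987 and 7 to 1291, each highest without mouse 2276. Equal total FPKM gave 291 and 246. Without moderation 292 were called higher and 1 after adjustment, and a pseudocount of 1 gave 5 after adjustment. The 9 genes gave 2 to 3 called higher and 1 lower with a mouse left out. Of 125 listed genes outside the 9, 17 were called higher and 4 lower, 6 to 25 and 3 to 12 with a mouse left out, 11 higher with equal totals and 5 higher without moderation. Of the related genes named, equal totals also ended the calls of *Musk*, *Pmp22*, *S100b*, *Vcam1*, *Fmod* and *C1qa*, no moderation those and *Myl6b* and *Sln*, quantile normalization *Pmp22* and *S100b*, and a pseudocount of 1 *C1qa*. With a mouse left out, B and T cell markers gave 1 to 7 genes called higher, at 1 without mouse 2280, 2281, 2278 or 2279, 2 without 2277 and 7 without 2276 (3 with equal totals, 4 with no filter, 1 without moderation). Adipocyte markers gave 1 to 3 higher (most without 2276), tendon and fibroblast markers 2 to 4 lower (most without 2278) and macrophage markers 0 to 1 higher, the *C1qa* call being lost in every such fit but that without 2279. Without both mice with B and T cell transcripts, also chosen after seeing the data, mouse 2276 stood alone and was assumed to vary like WT mice. That assumption is poor, since the median coefficient of variation was 9.28% in WT and 29.7% in *HrasG12V* mice, so nothing is read from the calls of this fit. It called 2423 genes higher, 2049 lower and 4200 after adjustment, 4 of the 9 higher and 0 lower, and 21 listed genes lower, and turned the B cell marker *Cd79a* to -0.20 and the T cell marker *Cd3e* to -0.0048. In it *Tmem8c* was at -0.85, *Myl4* at 1.44 and *Ncam1* at 0.97. The causes were not tested. With 3 mice per genotype and no read counts per library, precision is known from the spread between mice alone.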
